A study of Mus musculus with 11 samples.

Results

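The genes described here are 10 transcripts of the transforming growth factor beta (TGF-beta) system: the ligand genes Tgfb1, Tgfb2 and Tgfb3, the receptor genes Tgfbr1, Tgfbr2 and Tgfbr3, the Smad repressor genes Ski and Skil, the inhibitory Smad gene Smad7, and Tmem100, which encodes a small membrane protein. They were taken by gene symbol from a table of read counts for 24718 genes, and all 10 were present and passed the filter on low counts that left 17838 genes. The genes were chosen by their place in the pathway together with their fold changes in DOX4X against PBS, where Skil and Tmem100 were past the threshold. The values of that comparison for these genes are therefore given as a description and support nothing.

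TGF-beta ligands are secreted in latent complexes and are released from the matrix by integrins and proteases. The active ligand binds the receptor encoded by Tgfbr2, which recruits and phosphorylates the kinase receptor encoded by Tgfbr1, and this in turn phosphorylates Smad2 and Smad3. Betaglycan, encoded by Tgfbr3, is a co-receptor that presents ligand, above all the product of Tgfb2, and its shed ectodomain can sequester ligand. Ski and SnoN, the product of Skil, bind Smads in the nucleus and recruit corepressors, while Smad7 blocks the receptor, and Skil and Smad7 are themselves Smad target genes. TGF-beta stored in bone matrix is known to recruit skeletal progenitors and to act on blood stem cells in the marrow.

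RNA was measured in stromal cells of the bone marrow, sorted through tdTomato from female mice of the genotype Lepr-Cre;LSL-tdTomato+/-, in 11 libraries labelled as biological replicates. In these mice Cre, driven by the leptin receptor gene Lepr, switches on the red reporter, so that every group carries Cre and the reporter, and a cell that used Lepr at any earlier time also keeps the label. The PBS group (4 libraries) had 4 intravenous injections of PBS. The DOX1X group (3 libraries, mice described as young adult) had 1 intravenous injection of doxorubicin, an anthracycline that damages DNA, at 10 mg/kg. The DOX4X group (4 libraries, mice 8 to 10 weeks old) was injected 4 times at 5 mg/kg, once every 1 week. Cells were collected 8 weeks after treatment.

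Library totals ran from 29540422 to 42784036 counts. PBS 4 carries a title that begins with DOX and a treatment label of PBS, and was kept in the PBS group by the treatment label. All PBS libraries and DOX1X 1 and 2 were sequenced on flow cell 1, and DOX1X 3 and all DOX4X libraries on flow cell 2, so only DOX1X 3 separates the flow cell from a difference between DOX4X and PBS. Defining stromal genes were abundant, with Lepr at 6479 CPM ± 1092 (SD, n = 4) in PBS and 5050 ± 464 (n = 4) in DOX4X, where CPM are counts scaled to a common library size by the TMM method. Markers of other marrow cells were present too. The summed level of 14 endothelial markers was 172.0 to 751 CPM in PBS, 246 to 461 CPM in DOX1X and 650.3 to 1159 CPM in DOX4X. That of 9 B lineage markers was 33.7 to 76.0, 69.2 to 104 and 76.2 to 215 CPM. No marker of the endothelial, mural, megakaryocyte, macrophage, neutrophil, B lineage, erythroid or T cell lists was at 0 in any library. In such bulk samples, fewer cells of a type and less RNA per cell cannot be told apart.

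Reference promoters from RefSeq (GRCm38.p6) were matched by symbol to 5 of the 10 genes, and not to Tgfb3, Tgfbr3, Skil, Smad7 and Tmem100. A ligand pair and a receptor pair are shown because within each pair one gene, Tgfb2 or Tgfbr1, had a negative fold change in DOX4X against PBS at an unadjusted p under 0.05, though not after adjustment, and the other did not. Each line gives the 250 bases before the annotated start, 5′ to 3′ on the gene's strand. Capitals mark CAGAC, the core of a Smad box, and GGGCGG, a GC box, on either strand, with no overlap between them in these sequences. For Tgfbr1 the first of its annotated starts is shown.
Tgfb2 (chr1:186705990-186706239, minus strand): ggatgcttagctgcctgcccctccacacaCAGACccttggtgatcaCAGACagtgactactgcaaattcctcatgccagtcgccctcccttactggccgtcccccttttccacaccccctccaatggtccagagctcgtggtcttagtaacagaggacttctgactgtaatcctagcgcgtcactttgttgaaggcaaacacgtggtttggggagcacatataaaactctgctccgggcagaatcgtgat
Tgfb1 (chr7:25686752-25687001, plus strand): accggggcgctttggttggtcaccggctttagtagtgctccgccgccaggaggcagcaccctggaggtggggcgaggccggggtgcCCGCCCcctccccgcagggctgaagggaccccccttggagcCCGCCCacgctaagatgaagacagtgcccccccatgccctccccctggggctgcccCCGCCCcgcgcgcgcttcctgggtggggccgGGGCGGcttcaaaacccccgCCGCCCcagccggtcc
Tgfbr1 (chr4:47352972-47353221, plus strand): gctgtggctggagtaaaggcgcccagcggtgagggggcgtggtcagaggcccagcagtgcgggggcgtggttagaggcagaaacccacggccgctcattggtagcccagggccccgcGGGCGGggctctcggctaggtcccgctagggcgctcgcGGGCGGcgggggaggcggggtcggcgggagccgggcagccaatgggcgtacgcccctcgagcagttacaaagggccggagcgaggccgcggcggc
Tgfbr2 (chr9:116175364-116175613, minus strand): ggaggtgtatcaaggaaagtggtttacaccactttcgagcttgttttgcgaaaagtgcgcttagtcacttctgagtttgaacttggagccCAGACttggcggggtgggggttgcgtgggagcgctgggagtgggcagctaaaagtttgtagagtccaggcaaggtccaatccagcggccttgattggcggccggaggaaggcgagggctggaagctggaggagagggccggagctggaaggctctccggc

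The Tgfb2 stretch held 2 matches to CAGAC and none to GGGCGG, and the Tgfb1 stretch held 5 matches to GGGCGG and none to CAGAC. The Tgfbr1 stretch held 2 matches to GGGCGG, and the Tgfbr2 stretch held 1 match to CAGAC. TGACGTCA, the cyclic AMP response element, was also searched and was in none of the 4. Over 32851 reference stretches of the same length, 42.2% held CAGAC, 32.7% held GGGCGG and 1.55% held TGACGTCA on either strand. GC content was 53.6% for Tgfb2, 75.2% for Tgfb1, 74.8% for the Tgfbr1 stretch shown and 58.4% for Tgfbr2. These matches describe letters only, and in the 4 stretches shown each marked motif occurred in 1 gene of either kind. The stretch before the other annotated start of Tgfbr1, not shown, held 1 match to CAGAC and none to GGGCGG.

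Among the ligands Tgfb3 dominated the transcripts. To compare genes, CPM were divided by exon length in kilobases. In PBS, Tgfb3 stood at 123 CPM per kilobase ± 36.0 (SD, n = 4), against 8.55 ± 1.77 for Tgfb1 and 7.50 ± 0.743 for Tgfb2. Among the 3 ligands Tgfb3 thus held 87.8% ± 3.72 of the signal per kilobase, and among 17381 tested genes with a known length it lay at the 98.4th percentile. The ranges of Tgfb1 and Tgfb2 overlapped, so these ligands were not ordered.

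**Figure D1:**
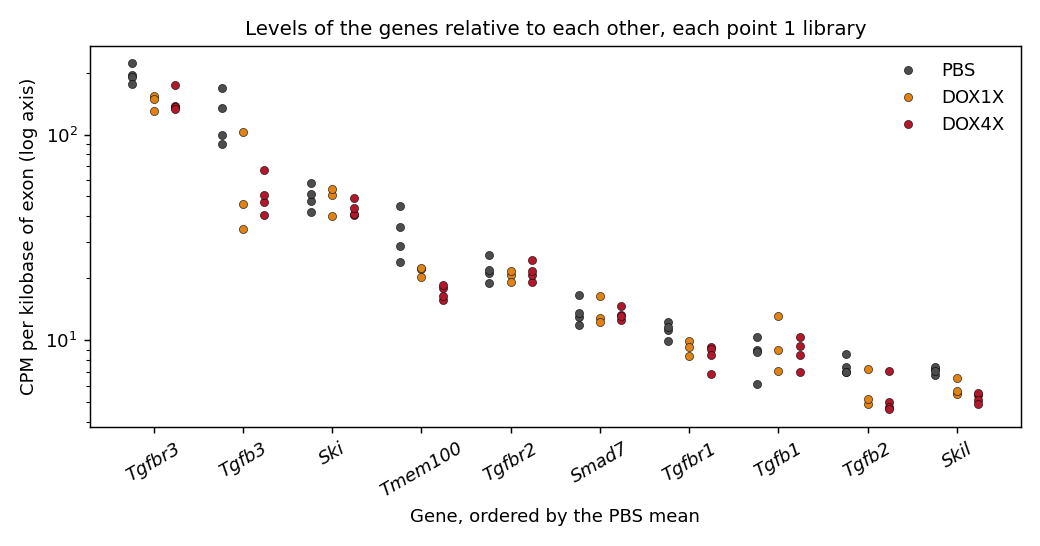
CPM per kilobase of exon (log axis) for the 10 genes, ordered by the PBS mean, with 1 point per library in PBS, DOX1X and DOX4X. Tgfbr3 and Tgfb3 stand above the other genes in PBS. Skil has the lowest PBS mean, at 7.14 CPM per kilobase, with a range that overlaps those of Tgfb1 and Tgfb2.

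Tgfbr3 was the most abundant of the 10, at 196 CPM per kilobase ± 19.1 in PBS, with the lowest library (177) above the highest for Tgfb3 (168). Tgfbr2 stood at 22.0 ± 2.93 and Tgfbr1 at 11.3 ± 1.01. The transcript of the co-receptor was therefore 8.99-fold ± 1.13 (SD, n = 4) more abundant than that of Tgfbr2 per kilobase in PBS, and Tgfbr2 was 1.95-fold ± 0.112 more abundant than Tgfbr1. Ski, at 49.9 ± 6.73, exceeded its homologue Skil 6.98-fold ± 0.856. Tmem100 stood at 33.3 ± 8.98, overlapping both neighbours in the order, Ski and Tgfbr2. Smad7 stood at 13.8 ± 2.01 and overlapped Tgfbr1.

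Tgfb3 had the largest difference of the 10 between DOX4X and PBS. It measured 303, 336, 570 and 456 CPM in PBS 1 to 4 and 159, 172, 138 and 228 CPM in DOX4X 1 to 4. All DOX4X libraries lay below all PBS libraries, and PBS 3 stood highest among the controls. The fitted difference was -1.26 on the log2 scale (SE 0.32, 95% interval -1.95 to -0.56, edgeR adjusted p = 0.14), so Tgfb3 did not pass the threshold over all genes. It passed with DESeq2 (adjusted p = 0.033) and, with edgeR, when DOX1X 3 was left out of the shared fit (adjusted p = 0.049).

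The single-dose libraries of Tgfb3 split by flow cell. They measured 155 CPM in DOX1X 1, 117 in DOX1X 2 and 349 in DOX1X 3. The first pair, on flow cell 1 with the PBS libraries, lay below every PBS library, and DOX1X 3 lay within the PBS range. DOX1X 3 also had a blood-cell marker score of -0.25, against 0.89 and 0.52 in DOX1X 1 and 2. The score is the mean log2 CPM of the neutrophil, macrophage, B lineage and erythroid lists, centred over the 11 libraries. It was -1.07, -0.54, -0.0045 and -0.58 in PBS 1 to 4, and 0.73, 0.66, -0.26 and -0.11 in DOX4X 1 to 4. The part of these markers in the Tgfb3 values was not tested in single libraries. Against PBS, DOX1X had a fitted log2 difference of -1.0 (SE 0.35, edgeR adjusted p = 0.60) over all 3 libraries and of -1.61 (SE 0.28, edgeR adjusted p = 0.20) within flow cell 1. On flow cell 2, the 4 DOX4X libraries lay below DOX1X 3, and the log2 difference was -1.0 (SE 0.23, edgeR adjusted p = 0.71, the lone DOX1X library being assumed to vary like the others). With flow cell as a term, DOX4X against PBS had -2.61 (SE 0.41, edgeR adjusted p = 0.095), and that value rests on DOX1X 3, the link between the flow cells. With the blood-cell marker score as a term it had -1.09 (SE 0.39).

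**Figure D2:**
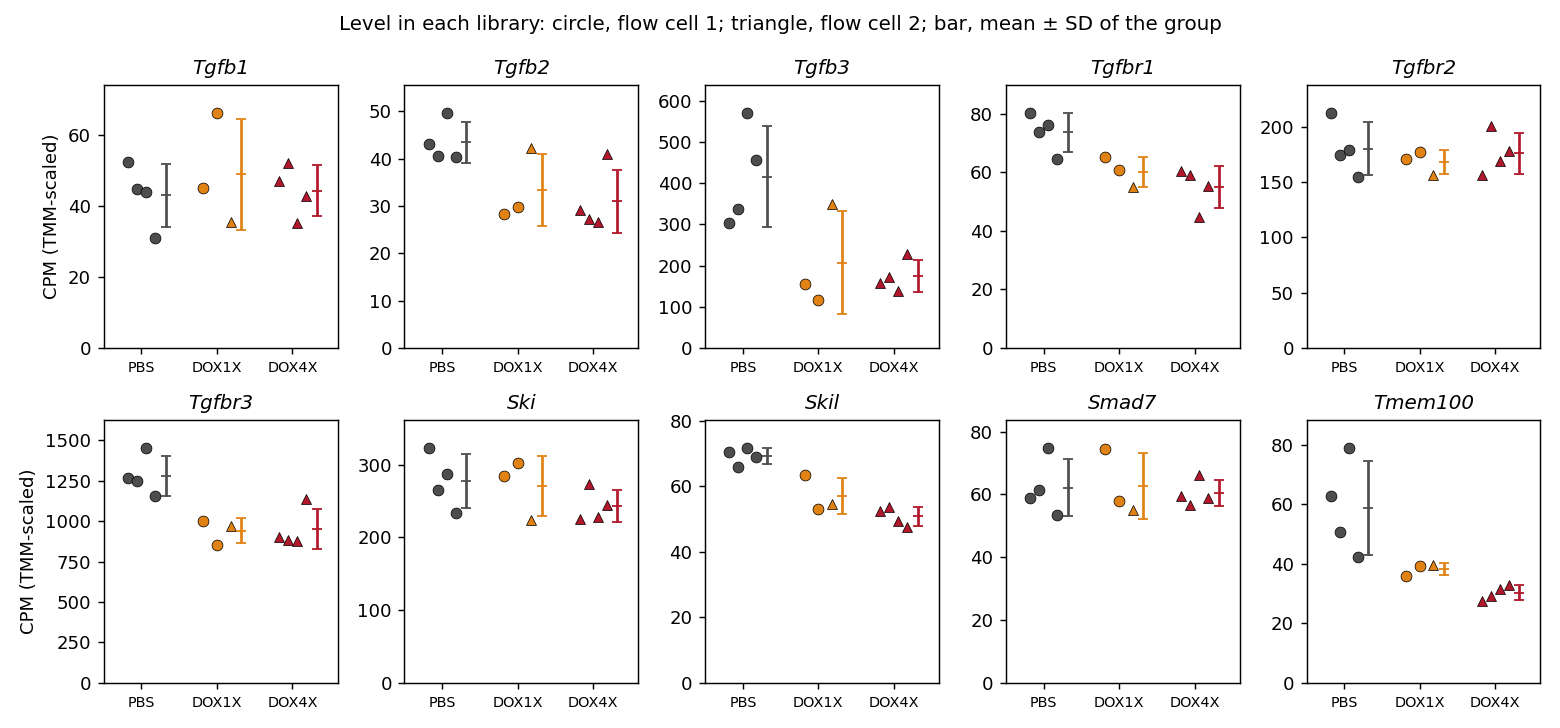
CPM in each of the 11 libraries for each of the 10 genes, by group, with the mean ± SD of the group at its right. Circles are libraries of flow cell 1 and triangles of flow cell 2. For Tgfb3, DOX1X 3 (349 CPM, triangle) stands apart from DOX1X 1 and 2. For Tmem100, Skil and Tgfbr3 all 7 doxorubicin libraries lie below the 4 PBS libraries, and the share of all genes with this separation was not counted.

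Tgfb2 followed a like pattern at a lower level. It measured 43.1, 40.6, 49.6 and 40.4 CPM in PBS 1 to 4, 28.3, 29.8 and 42.2 CPM in DOX1X 1 to 3, and 29.2, 27.3, 26.7 and 40.9 CPM in DOX4X 1 to 4. DOX1X 3 and DOX4X 4 lay inside the PBS range and the other 5 doxorubicin libraries below it. The log2 fold change was -0.49 (SE 0.16, edgeR adjusted p = 0.23) for DOX4X against PBS, -1.02 (SE 0.27) once flow cell entered the fit, and -0.38 (SE 0.17, edgeR adjusted p = 0.69) for DOX1X against PBS.

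Tgfb1, the ligand most widely made by blood cells and platelets, passed in no comparison. It spanned 31.0 to 52.4 CPM in PBS, 35.6 to 66.3 CPM in DOX1X and 35.2 to 52.2 CPM in DOX4X, and the groups overlapped throughout. Its log2 fold change for DOX4X against PBS was 0.04 (SE 0.20, 95% interval -0.40 to 0.48), and for DOX1X against PBS 0.18 (SE 0.22). The first value was -0.16 with the blood-cell marker score as a term, -0.19 with the endothelial marker score and 0.69 (SE 0.36) with flow cell, none past the threshold. The blood-cell score leaves out the megakaryocyte and platelet list and the T cell list. The highest library for Tgfb1 was DOX1X 2 (66.3 CPM). The summed level of 7 megakaryocyte and platelet markers ran from 236 to 1407 CPM in DOX1X, against 55.1 to 676 in PBS and 70.3 to 456 in DOX4X, and the part of such cells in the Tgfb1 level was not tested.

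The balance of ligand transcripts differed with these values. Tgfb3 held 83.4% to 91.1% of the ligand signal per kilobase in PBS, 76.6% to 81.2% in DOX4X, and 76.8%, 65.4% and 87.8% in DOX1X 1 to 3. The share of Tgfb1 was 6.57% ± 2.61 (SD, n = 4) in PBS and 13.6% ± 2.46 (n = 4) in DOX4X, without overlap, although the level of Tgfb1 itself differed little. Per kilobase, Tgfb3 exceeded Tgfb1 15.2-fold ± 6.37 in PBS and 5.93-fold ± 1.39 in DOX4X. Tgfb3 remained the most abundant ligand transcript in all 11 libraries.

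**Figure D3:**
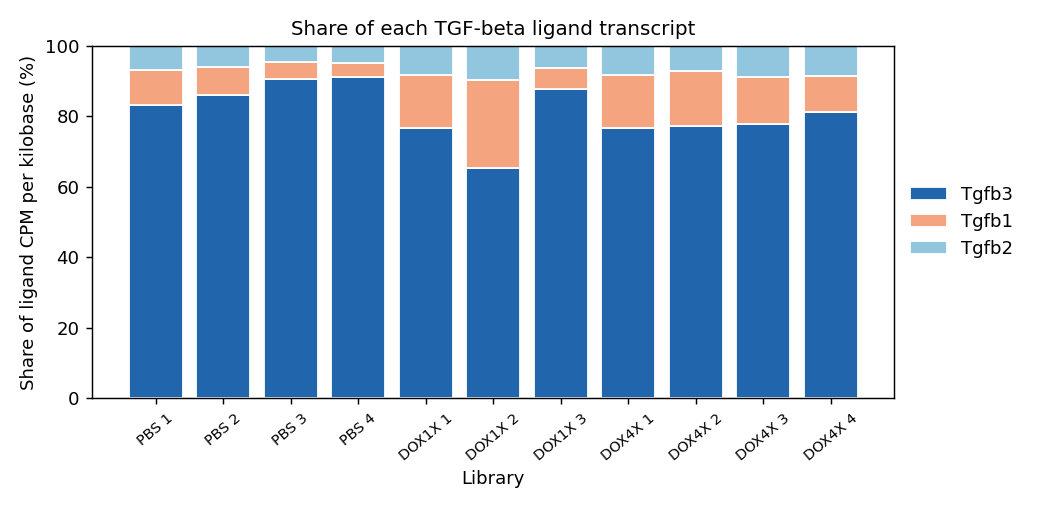
Share of Tgfb3, Tgfb1 and Tgfb2 in the summed ligand signal (CPM per kilobase of exon, in percent) in each library. The Tgfb3 share is 83.4% or more in the PBS libraries and in DOX1X 3, and 81.2% or less in the other doxorubicin libraries.

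None of the 3 receptor genes passed the threshold in any comparison with edgeR, and Tgfbr1 and Tgfbr3 had larger negative fold changes than Tgfbr2. With DESeq2, Tgfbr1 (adjusted p = 0.017) and Tgfbr3 (adjusted p = 0.0081) passed in DOX4X against PBS, and Tgfbr2 did not (adjusted p = 0.93). Tgfbr1 measured 80.1, 73.6, 76.0 and 64.5 CPM in PBS 1 to 4 and 60.5, 59.1, 44.9 and 55.4 CPM in DOX4X 1 to 4, and DOX1X 1 to 3 had 65.1, 60.6 and 54.9 CPM. The DOX4X libraries lay below all PBS libraries, and DOX1X 1 overlapped PBS 4. The log2 fold change for DOX4X against PBS was -0.42 (SE 0.10, edgeR adjusted p = 0.14), and -0.23 (SE 0.21) when flow cell was fitted. For DOX1X against PBS it was -0.29 (SE 0.11, edgeR adjusted p = 0.64).

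Tgfbr3 measured 1268, 1248, 1454 and 1156 CPM in PBS 1 to 4, 1003, 855 and 970 CPM in DOX1X 1 to 3, and 905, 886, 875 and 1141 CPM in DOX4X 1 to 4. Each doxorubicin library lay below each PBS library, by the smallest margin in DOX4X 4. The log2 fold changes were -0.43 (SE 0.11, edgeR adjusted p = 0.14) for DOX4X and -0.44 (SE 0.12, edgeR adjusted p = 0.52) for DOX1X against PBS. The comparisons share the PBS libraries. Within flow cell 1, DOX1X against PBS had -0.47 (SE 0.13). DOX4X against DOX1X had 0.01 (SE 0.12, 95% interval -0.24 to 0.27).

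Tgfbr2 spanned 155 to 212 CPM in PBS, 156 to 177 CPM in DOX1X and 156 to 201 CPM in DOX4X. Its log2 fold change for DOX4X against PBS was -0.03 (SE 0.10, 95% interval -0.26 to 0.20). Per kilobase, Tgfbr2 exceeded Tgfbr1 1.95-fold ± 0.112 (SD, n = 4) in PBS, 2.23-fold ± 0.125 (n = 3) in DOX1X and 2.59-fold ± 0.394 (n = 4) in DOX4X, and the PBS and DOX4X ranges (1.88 to 2.12 and 2.06 to 3.01) overlapped. The ratio of Tgfbr3 to Tgfbr2 was 8.99 ± 1.13 in PBS and 6.81 ± 1.06 in DOX4X, with ranges that overlapped as well.

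Of the repressor genes, Skil passed the threshold in DOX4X against PBS, and Ski and Smad7 passed in no comparison. Skil measured 70.3, 66.0, 71.7 and 69.0 CPM in PBS 1 to 4, 63.4, 53.0 and 54.6 CPM in DOX1X 1 to 3, and 52.3, 53.8, 49.5 and 47.5 CPM in DOX4X 1 to 4. PBS libraries were close together, with a coefficient of variation of 3.51%, and all doxorubicin libraries lay below them. In DOX4X against PBS, the comparison that chose it, Skil fell by 0.45 on the log2 scale (SE 0.07), with an edgeR adjusted p of 0.048. In DOX1X against PBS it had -0.28 (SE 0.08, edgeR adjusted p = 0.58), and in DOX4X against DOX1X -0.17 (SE 0.08, 95% interval -0.34 to 0.01).

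Ski, its more abundant homologue, spanned 234 to 323 CPM in PBS, 223 to 302 CPM in DOX1X and 225 to 274 CPM in DOX4X. The log2 fold change for DOX4X against PBS was -0.19 (SE 0.12, 95% interval -0.45 to 0.07, edgeR adjusted p = 0.51), and 0.20 (SE 0.21) when flow cell was fitted. The ratio of Ski to Skil per kilobase was 6.98 ± 0.856 in PBS, 8.29 ± 1.46 in DOX1X and 8.35 ± 0.712 in DOX4X, with overlapping ranges. Smad7 spanned 53.4 to 74.8 CPM in PBS, 55.1 to 74.5 CPM in DOX1X and 56.6 to 66.2 CPM in DOX4X, with a log2 fold change of -0.04 for DOX4X against PBS (SE 0.12, 95% interval -0.30 to 0.22).

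Tmem100, known as a target of BMP signalling through the receptor ALK1 in endothelium, measured 62.9, 50.9, 79.0 and 42.5 CPM in PBS 1 to 4. It measured 35.9, 39.3 and 39.8 CPM in DOX1X 1 to 3, and 27.7, 29.1, 31.7 and 32.9 CPM in DOX4X 1 to 4. The 3 groups did not overlap, with DOX1X between the others, and the PBS libraries were the most spread (coefficient of variation 27.0%, against 5.56% in DOX1X and 7.93% in DOX4X). In DOX4X against PBS, which chose it, Tmem100 fell by 0.96 (SE 0.16, edgeR adjusted p = 0.048). DOX1X against PBS had -0.62 (SE 0.17, edgeR adjusted p = 0.58), and within flow cell 1 -0.65 (SE 0.23). DOX4X against DOX1X had -0.34 (SE 0.17, 95% interval -0.70 to 0.03, edgeR adjusted p = 1.00), and within flow cell 2 -0.39 (SE 0.14).

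The summed level of the endothelial markers had a higher mean in DOX4X than in PBS, with ranges that overlapped. Tmem100 lay lower in DOX4X, and the part of endothelial cells in its level was not tested. All 14 of the list had positive values in DOX4X against PBS (median log2 fold change 0.85, 0 past the threshold). In DOX1X against PBS 12 of 14 were lower (median -0.55). With the endothelial marker score as a term, Tmem100 had -1.10 (SE 0.19, edgeR adjusted p = 0.093) in DOX4X against PBS and Skil -0.42 (SE 0.09, edgeR adjusted p = 0.20). With the blood-cell marker score as a term they had -0.95 (SE 0.20) and -0.54 (SE 0.09).

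Counted over the 10 genes, 2 passed the threshold in DOX4X against PBS, Skil and Tmem100, where 0.146% of all genes tested did (26 of 17838). In 5 of the 10 (Tgfb3, Tgfbr1, Tgfbr3, Skil and Tmem100) the DOX4X libraries lay wholly below PBS, against 4.68% of all genes, and in 0 wholly above, against 3.17%. At an unadjusted p under 0.05, 6 of the 10 were lower, against 7.85% of all genes, and 0 higher, against 6%. Since this contrast took part in the choice, nothing is read from these shares. The median log2 fold change of the 10 was -0.42, beside 0.01 over all genes. In DOX1X against PBS, edgeR called 0 of the 10 (0.00561% of all genes, 1 of 17838), DESeq2 and limma-voom also called 0, and 5 lay lower at an unadjusted p under 0.05, against 3.74% of all genes, and 0 higher, against 3.42%. In 3 of the 10 (Tgfbr3, Skil and Tmem100) the DOX1X libraries lay wholly below PBS, against 3.82% of all genes, and in 0 wholly above, against 3.18%. These are the same PBS libraries that entered the choice of the genes. In DOX4X against DOX1X, 0 of the 10 were called by edgeR, DESeq2 or limma-voom (edgeR 0.00561% of all genes). In the shared edgeR fit 0 had an unadjusted p under 0.05, against 2.13% of all genes lower and 2.23% higher. Among the alternatives, 1 of the 10 was under 0.05 unadjusted with limma-voom (1376 of 17838 genes). The same count held with edgeR on the compared groups alone (868 of 17348 genes) and with flow cell as a term (955 of 17838 genes). Tmem100 was the 1 gene of the 10 whose DOX4X libraries lay wholly below DOX1X, against 2.79% of all genes, and 0 lay wholly above, against 3.19%. The DOX4X libraries here are those that entered the choice of the genes, so nothing is read from these shares either.

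**Figure D4:**
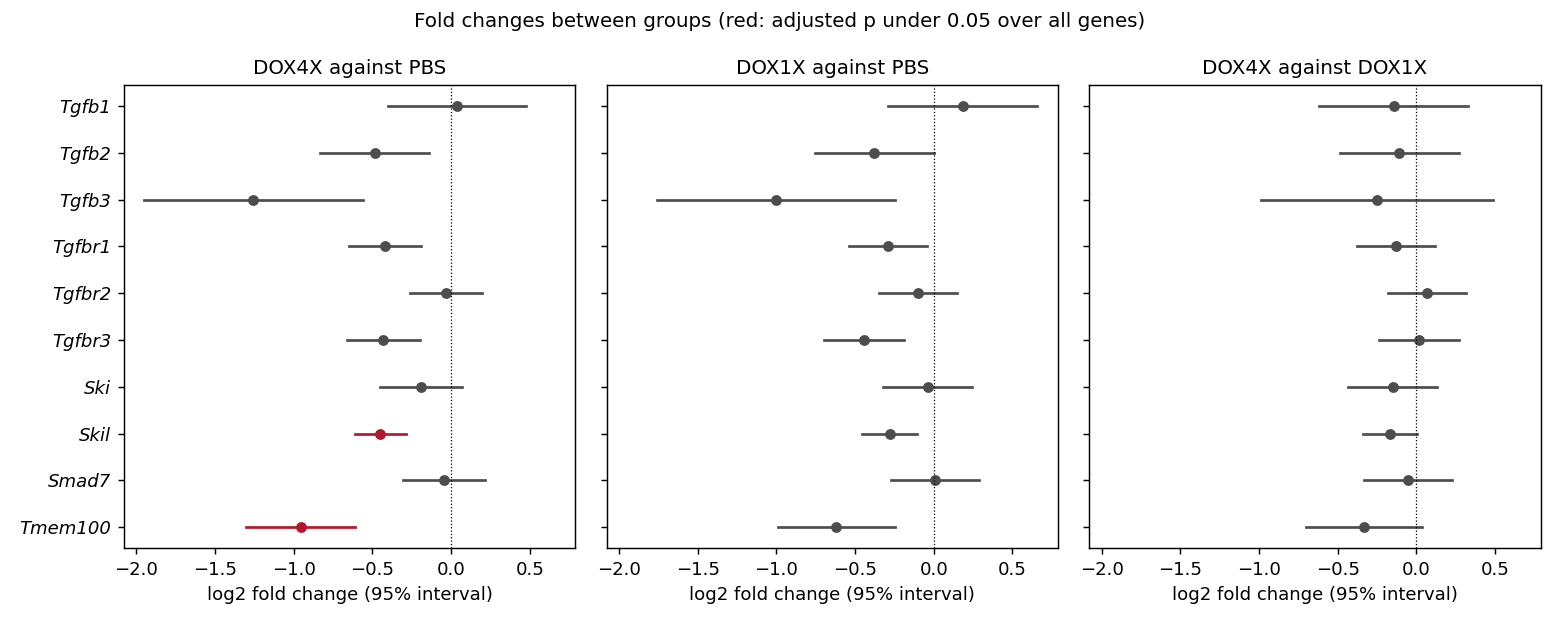
Log2 fold changes with 95% intervals from edgeR for the 10 genes in DOX4X against PBS, DOX1X against PBS and DOX4X against DOX1X. Skil (-0.45) and Tmem100 (-0.96), in red, are past the threshold in the first comparison, and all 10 intervals in the third comparison include 0.

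The calls of Skil and Tmem100 lay at the edge of the threshold. Neither passed when PBS 1, PBS 2, PBS 3, DOX1X 1, DOX1X 2 or any of DOX4X 1 to 4 was left out, and both passed without PBS 4 or without DOX1X 3, while the log2 fold change stayed between -0.47 and -0.42 for Skil and between -1.08 and -0.78 for Tmem100. With flow cell as a term neither passed, with -0.36 (SE 0.15, edgeR adjusted p = 0.48) for Skil and -1.04 (SE 0.32, edgeR adjusted p = 0.35) for Tmem100.

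The genes whose profile over the 11 libraries was most like that of Skil, by the root mean square difference of centred log2 CPM among 11052 genes, were Lin7c (0.071), Lpar1 (0.078), Fut8 (0.084), Cpne3 (0.087) and Apc (0.088), beside a median of 0.26 over all candidates. For Tmem100 they were Itgb5 (0.14), Qsox1 (0.16), Sulf2 (0.16), Enpp1 (0.18) and Fbn1 (0.19), beside a median of 0.47. Among the 10 genes themselves, Tgfbr2 and Ski were nearest to each other (0.11), and the nearest to Skil was Tgfbr1 (0.12). Over the 11 libraries Tgfb3 had the widest spread of the 10 (SD 0.76 in log2 units) and Tgfbr2 the narrowest (SD 0.14), beside a median of 0.17 over genes with at least 5 CPM.

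The surrounding pathway was read from 6 lists, and in DOX4X against PBS each count stands beside these shares of all tested genes: 0.146% passed the threshold, all of them lower, 7.85% were lower and 6% higher at an unadjusted p under 0.05, and the median log2 fold change was 0.01. Of 13 tested genes of the latent complex and its activation, 1 fell, 0 rose, 6 were lower and 1 higher at an unadjusted p under 0.05, and the median was -0.38. The called gene was Itgb5, an integrin subunit that with Itgav forms a receptor able to activate latent TGF-beta, and it fell from a mean of 434 CPM to 217 CPM, a log2 difference of -1.0 (SE 0.15) with an adjusted p of 0.043 in edgeR. No gene of the list passed under 13 of the alternatives, among them flow cell as a term, and 5 passed with DESeq2. In DOX1X against PBS, 0 passed, and Itgb5 had -0.62 (SE 0.16, edgeR adjusted p = 0.52) and Itgb1, the integrin beta 1 subunit, -0.17 (SE 0.10). In DOX4X against DOX1X, 0 passed, and Itgav had -0.33 (SE 0.12) and Itgb5 -0.38 (SE 0.16).

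Of 10 tested transducers, 0 passed in any comparison with edgeR. In DOX4X against PBS, 2 were lower and 0 higher at an unadjusted p under 0.05 (7.85% and 6% of all genes), with a median of -0.14. Map3k7, the kinase TAK1, had -0.22 (SE 0.07) and Fkbp1a, which binds the kinase receptor, -0.17 (SE 0.07). Smad2, a receptor substrate, had -0.22 (SE 0.11) in DOX1X against PBS, and Smad4, the shared partner of the Smads, -0.15 (SE 0.10). For DOX4X against DOX1X, Map3k7 had -0.14 (SE 0.08) and Zfyve9, which encodes the Smad anchor SARA, -0.20 (SE 0.19).

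Of 19 tested negative regulators and corepressors, 0 passed in any comparison with edgeR. In DOX4X against PBS, 2 were lower and 1 higher at an unadjusted p under 0.05 (7.85% and 6% of all genes), with a median of -0.01. Nedd4l, a ubiquitin ligase for Smads, had 0.38 (SE 0.10, edgeR adjusted p = 0.15) and Wwp1, a related ligase, -0.26 (SE 0.08). The kinase gene Hipk2 in DOX1X against PBS had 0.27 (SE 0.09) and Smurf1, another ligase, -0.23 (SE 0.10). In DOX4X against DOX1X, Pmepa1, a TGF-beta induced inhibitor of the pathway, had -0.38 (SE 0.11, edgeR adjusted p = 0.89) and Wwp1 -0.17 (SE 0.08).

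Of 28 tested genes that TGF-beta induces, 0 passed in any comparison with edgeR. In DOX4X against PBS, 7 were lower and 1 higher at an unadjusted p under 0.05 (7.85% and 6% of all genes), with a median of -0.18 beside 0.01 over all genes. Postn, which encodes periostin, had -1.15 (SE 0.28, edgeR adjusted p = 0.13), and Col5a1, a collagen chain, -0.47 (SE 0.12, edgeR adjusted p = 0.14). In DOX1X against PBS the median was -0.13, and Postn had -0.87 (SE 0.30, edgeR adjusted p = 0.60). Ccn2, a matricellular TGF-beta target, measured 469, 582, 839 and 454 CPM in PBS 1 to 4. In DOX1X 1 to 3 it measured 328, 325 and 336 CPM, wholly below PBS, as did 3.82% of all genes. Its log2 fold change for DOX1X against PBS was -0.83 (SE 0.19, edgeR adjusted p = 0.52). For DOX4X against PBS it was -0.56 (SE 0.18, edgeR adjusted p = 0.21), also wholly below PBS, as for 4.68% of all genes. Junb, a transcription factor gene, in DOX4X against DOX1X had -0.38 (SE 0.14) and Lox, a collagen cross-linking enzyme gene, -0.43 (SE 0.16).

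Of 16 tested genes of the BMP and ALK1 arm, 0 passed in any comparison with edgeR. For DOX4X against PBS, 4 were higher and 2 lower at an unadjusted p under 0.05 (6% and 7.85% of all genes), with a median of 0.13. The part of endothelial cells in the values of this list was not tested. Eng, the co-receptor endoglin, also an endothelial gene, had 0.40 (SE 0.13, edgeR adjusted p = 0.21), and Bmpr1a, a BMP receptor, -0.25 (SE 0.07). In DOX1X against PBS, Id3, a BMP target, had 0.44 (SE 0.16) and Bmpr1a -0.19 (SE 0.08). In DOX4X against DOX1X, Eng had 0.53 (SE 0.14, edgeR adjusted p = 0.89), with all DOX4X libraries above all DOX1X libraries, and Acvrl1, which encodes ALK1, had 0.25 (SE 0.10, edgeR adjusted p = 1.00) with overlap.

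Of 8 tested genes of the activin and inhibin arm, 0 passed in any comparison with edgeR. For DOX4X against PBS, 1 was higher and 0 lower at an unadjusted p under 0.05 (6% and 7.85% of all genes), with a median of 0.16. Fst, which encodes the activin antagonist follistatin, had 0.56 (SE 0.17, edgeR adjusted p = 0.21) in DOX4X and 0.60 (SE 0.19, edgeR adjusted p = 0.60) in DOX1X against PBS, and each doxorubicin library (270.5 CPM or more) lay above each PBS library (268 CPM or less). Fstl3, a related antagonist, had -0.44 (SE 0.27) in DOX4X against PBS. Acvr1b, an activin receptor gene, had 0.54 (SE 0.23) in DOX1X against PBS and -0.23 (SE 0.23) in DOX4X against DOX1X, where Acvr2b, another, had 0.32 (SE 0.16).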

How the data were processed

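The authors deposited 1 table of raw, unnormalized gene counts. The submitters' processing notes name featureCounts 2.0.1, STAR 2.7.9a on GRCm39, Trim Galore 0.6.6, SAMtools 1.17, FastQC 0.11.5 and MultiQC 1.7. Annotation, strand setting and treatment of multimapping reads: not given in the sources used here. Flow cells were read from the column names. Reads of Tgfb2, Tgfb3 and Tgfbr3 that overlap other annotated genes could not be told apart from those genes.

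Libraries were grouped by their treatment label. Genes were filtered with filterByExpr, scaled with TMM and tested in 1 fit of all 11 libraries with the quasi-likelihood test of edgeR 4.0.16 (R 4.3.3), two-sided, with Benjamini-Hochberg adjustment over 17838 genes and a threshold of 0.05. The procedure was run on simulated counts with changes planted in DOX4X that were larger than that of Skil. The simulation had no effect of flow cell or cell content, so it says nothing on these. Exon lengths came from GENCODE (GRCm38), another build, so levels per kilobase are approximate. Log2 CPM for profiles and marker scores used a prior count of 2.

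The genes, lists and tests were chosen with earlier results of these data known. All 10 genes are named. Of each pathway list the genes past the threshold are named, or, where none passed in a comparison, the 2 with the smallest p in it, and for Skil and Tmem100 the 5 genes of most like profile with at least 5 CPM. Alternatives were RLE and upper quartile scaling, no filter and a filter of 5 CPM in 3 libraries, DESeq2 1.42.0, limma-voom (limma 3.58.1), fits of the compared groups alone, a replicate block, flow cell and marker scores as terms, each library left out and a threshold of 0.10. Fits within a flow cell were added after seeing the data.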

Additional observations from a re-analysis of the deposited data

Results flagged for a closer look

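Tgfbr3 in DOX4X 4 stood at 1141 CPM, against 875 to 905 CPM in DOX4X 1 to 3. Its gap to the next library was 0.888 of the range of the group, above Dixon's critical value for 4 libraries at the 95% level. Among 20 groups of 4 libraries examined (the 10 genes in PBS and in DOX4X) it was the 1 that stood apart in this way, and chance gives about 1 in 20. DOX4X 4 was also the highest DOX4X library for Tgfb2 (40.9 CPM) and Tgfb3 (228 CPM). Without it, the log2 fold change of Tgfbr3 for DOX4X against PBS was -0.53.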

How the results depend on the processing

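In DOX4X against PBS, Tgfb2, Tgfb3, Tgfbr1, Tgfbr3, Skil and Tmem100 kept their sign under all 22 alternatives that gave another fit. The number of the 10 genes called was 2, and 0 to 3 with 1 library left out. It was 1 with upper quartile scaling, with no low-count filter and with the stricter filter, 5 with DESeq2, and 0 with the compared groups alone, the replicate block, flow cell, the blood-cell score or the endothelial score as a term. Over all genes the count was 26, and 0 to 80 with 1 library left out (0 without DOX4X 1, 2 or 3, where 1914, 1725 and 2352 genes had an unadjusted p under 0.05, 47 without DOX1X 3 and 80 without PBS 4). It was 590 with DESeq2, 56 with limma-voom, 1 with the compared groups alone, 10 with the replicate block, 6 with flow cell as a term, 0 with the blood-cell score (1889 at an unadjusted p under 0.05), 7 with the endothelial score and 64 at a threshold of 0.10. In DOX1X against PBS the count was 1, and 49 with DESeq2, 6 with the replicate block, 5 within flow cell 1 and 1 to 2 with 1 library left out. In DOX4X against DOX1X it was 1, and 27 with DESeq2, 2 with the replicate block, 0 with the endothelial score and 1 to 2 with 1 library left out. The cause of these differences was not tested.

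Signs changed for the following log2 fold changes, none of them called. With flow cell as a term, DOX4X against PBS had 0.20 for Ski, 0.22 for Smad7 and 0.12 for Tgfbr2, DOX1X against PBS had 0.080 for Ski, and DOX4X against DOX1X had 0.12 for Ski, 0.13 for Smad7, 0.32 for Tgfb1, 0.0011 for Tgfbr1 and -0.027 for Tgfbr3. Within flow cell 1, Ski had 0.077. Within flow cell 2, Ski had 0.12, Smad7 0.13, Tgfb1 0.32, Tgfbr1 0.0041 and Tgfbr3 -0.025. With the blood-cell score, DOX1X against PBS had -0.15 for Smad7 and -0.048 for Tgfb1, and DOX4X against PBS -0.16 for Tgfb1. With the endothelial score, Tgfb1 had -0.19 in DOX4X against PBS and Tgfbr2 -0.12 in DOX4X against DOX1X. With limma-voom, DOX4X against DOX1X had 0.021 for Tgfb2 and 0.10 for Tgfb3. With the stricter filter Tgfbr2 had 0.0016 in DOX4X against PBS. With the replicate block, Smad7 had -0.026 in DOX1X against PBS and Tgfbr3 -0.011 in DOX4X against DOX1X. With 1 library left out, DOX4X against PBS ran from -0.11 to 0.059 for Smad7, from -0.089 to 0.14 for Tgfb1 and from -0.099 to 0.052 for Tgfbr2. DOX1X against PBS ran from -0.13 to 0.080 for Ski, from -0.14 to 0.11 for Smad7 and from -0.097 to 0.37 for Tgfb1. DOX4X against DOX1X ran from -0.14 to 0.093 for Smad7, from -0.33 to 0.13 for Tgfb1, from -0.27 to 0.093 for Tgfb2, from -0.54 to 0.35 for Tgfb3, from -0.00054 to 0.12 for Tgfbr2 and from -0.085 to 0.061 for Tgfbr3.

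Replicate numbers were given in accession order and do not pair the mice. Deviations of same-numbered libraries correlated from -0.12 to 0.35, and those of differently numbered libraries of different groups from -0.35 to 0.35. With the block the adjusted p was 0.093 for Skil and 0.085 for Tmem100.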
